A study of Mus musculus with 8 samples.

Results

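The RNAs described here were the 181 non-coding genes with at least 2 FPKM in at least 4 of 8 mouse liver libraries, of 4738 non-coding genes among the 21358 genes of the deposited table. FPKM is the number of sequenced fragments per kilobase of gene, scaled to the library's total, so it can be compared between genes. The livers came from mice kept for 22 weeks on fasting every other day. In 4 of them, SG 101, 103, 104 and 105, the labels give the treatment as starvation glucose, and in the other 4, FG 93, 94, 95 and 96, as feeding glucose. Glucose and the fasting regimen were thus shared by both groups, and the metabolic state at glucose intake set them apart. Sex, age, strain, batch and the interval since the last meal are not given in the labels. The series counts 4 mice per group but ties no library to an animal, so the p-values here cover library-to-library spread only. The members were chosen by their FPKM levels in these libraries, so levels are described here without a test, and 8 of the 181 genes reached 2 FPKM in the libraries of only 1 group and therefore had to differ.

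Long non-coding RNAs are transcribed and often spliced like messenger RNAs but have no long open reading frame. Some stay in the nucleus and build nuclear bodies, some are hosts whose introns carry small nucleolar RNAs or whose transcripts are cut into microRNAs, and many lie beside or antisense to protein-coding genes and share their promoters or enhancers. In liver, their neighbours include enzymes of sugar, fat and amino acid metabolism, many of which respond to feeding and fasting. Of the 181 genes, 177 had a position in RefSeq on GRCm38.p6, and all 177 were annotated there as lncRNA. The span of 62 of the 177 overlapped a protein-coding gene, 122 lay within 10 kb of one or overlapped it, and 14 lay more than 100 kb from the nearest. No source used here says whether reads were counted by strand, so reads of a non-coding gene and of a gene it overlaps cannot be told apart.

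Promoter sequences were taken from RefSeq, build GRCm38.p6, as windows of 300 bases, 250 before and 50 after an annotated start, written 5′ to 3′ on the strand of the gene. The windows below belong to the genes on which the results turn: Urml and Gm33543, which were among the largest rises in SG, Gm38467 and 1810008I18Rik, which were among the largest falls, and the divergent pair Gm41269 and Agxt2, which were both higher. Capitals mark a match on either strand to TATAAA (the TATA box), CCAAT (bound by NF-Y), CACGTG (an E-box), TGACGTCA (a cyclic AMP response element), TGTTTAC (a forkhead motif) or CAAAGTCCA (an HNF4A motif), none of which overlapped another here. Urml lies on the minus strand at chr13:68234682-68234981, Gm33543 on the minus strand at chr10:95842861-95843160, Gm38467 on the minus strand at chr12:70231461-70231760, and the window of the second annotated start of 1810008I18Rik on the plus strand at chr7:65803783-65804082. Gm41269 lies on the minus strand at chr15:10357774-10358073 and the first start of Agxt2 on the plus strand at chr15:10358283-10358582.
Urml: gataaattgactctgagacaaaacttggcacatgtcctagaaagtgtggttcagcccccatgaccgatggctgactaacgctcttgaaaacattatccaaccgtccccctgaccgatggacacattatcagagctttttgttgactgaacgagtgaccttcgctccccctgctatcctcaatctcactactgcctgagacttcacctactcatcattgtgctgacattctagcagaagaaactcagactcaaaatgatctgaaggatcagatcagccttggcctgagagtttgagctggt
Gm33543: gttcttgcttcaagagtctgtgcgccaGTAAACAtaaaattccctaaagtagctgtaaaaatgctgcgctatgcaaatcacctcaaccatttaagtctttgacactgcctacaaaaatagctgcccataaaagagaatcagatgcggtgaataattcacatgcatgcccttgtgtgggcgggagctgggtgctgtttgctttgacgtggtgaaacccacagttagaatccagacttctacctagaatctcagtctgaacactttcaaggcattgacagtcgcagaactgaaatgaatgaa
Gm38467: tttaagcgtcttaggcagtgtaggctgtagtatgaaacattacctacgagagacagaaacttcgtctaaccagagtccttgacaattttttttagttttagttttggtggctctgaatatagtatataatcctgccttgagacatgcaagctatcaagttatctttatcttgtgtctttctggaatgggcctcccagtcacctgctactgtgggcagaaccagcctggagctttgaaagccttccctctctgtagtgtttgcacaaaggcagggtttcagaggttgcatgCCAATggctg
1810008I18Rik: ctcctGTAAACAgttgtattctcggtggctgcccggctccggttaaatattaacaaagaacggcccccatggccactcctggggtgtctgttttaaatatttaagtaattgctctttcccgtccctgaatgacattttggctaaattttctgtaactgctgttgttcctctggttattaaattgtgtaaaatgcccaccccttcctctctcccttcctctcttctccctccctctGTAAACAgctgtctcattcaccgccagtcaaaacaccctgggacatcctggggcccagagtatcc
Gm41269: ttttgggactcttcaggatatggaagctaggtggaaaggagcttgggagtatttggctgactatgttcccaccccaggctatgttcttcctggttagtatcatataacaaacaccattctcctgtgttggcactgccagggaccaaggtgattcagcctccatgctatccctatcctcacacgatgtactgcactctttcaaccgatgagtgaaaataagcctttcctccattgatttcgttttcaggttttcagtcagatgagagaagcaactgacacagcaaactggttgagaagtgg
Agxt2: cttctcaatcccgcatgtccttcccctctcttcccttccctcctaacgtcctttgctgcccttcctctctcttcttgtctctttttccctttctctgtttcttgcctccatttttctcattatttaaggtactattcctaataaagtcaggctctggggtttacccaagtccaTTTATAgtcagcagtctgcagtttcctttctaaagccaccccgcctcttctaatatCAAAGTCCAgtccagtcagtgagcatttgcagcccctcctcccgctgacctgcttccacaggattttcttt

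TGTTTAC, read on the opposite strand as GTAAACA, stood 223 bases before the start of Gm33543, and 245 and 15 bases before the second start of 1810008I18Rik. The window of the first start of 1810008I18Rik (chr7:65802787-65803086) held no TGTTTAC and 1 other motif, CACGTG, 8 bases past the start and in 7.15% of all windows. TGTTTAC was found in 10 of 180 windows of the non-coding genes, 5.56%, and in 3.65% of the 32851 mouse windows of the same length. CCAAT lay 40 bases past the start of Gm38467, and 37.4% of all windows held it. The Agxt2 window held TTTATA 77 bases and CAAAGTCCA 21 bases before its start, shared with 13.6% and 0.475% of all windows. The windows of Urml and Gm41269 held none of the 6 motifs. RefSeq gave a window for 141 of the 181 genes.

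Most of the 181 genes were present at low levels, and a few stood far above the rest. Their mean over the 8 libraries had a median of 4.28 FPKM, beside 6.12 FPKM over all tested genes. The means of the 181 genes ran from 1.69 to 126 FPKM, with 35 genes at 10 FPKM or more and 3 at 100 FPKM or more. The median value corresponded to 201 fragments, with quartiles of 99 and 425. The coefficient of variation within a group had a median of 26.3% in SG and 28.2% in FG, against 15.5% in SG and 13.2% in FG over all tested genes. The gene nearest inside the threshold was Gm46133, which had 2.02 FPKM in the last of the 4 libraries it needed, followed by Gm30931 and Gm40656 at 2.02 and 2.06 FPKM. Just outside were Gm19522, 4732419C18Rik and Gm33330 at 1.99, 1.97 and 1.93 FPKM.

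Of the 10 most abundant non-coding genes, 2 passed the test between the groups and 8 did not, beside 19.4% called among all tested genes. BC024386 and 0610005C13Rik shared the top level at 126 and 125 FPKM over the 8 libraries, ahead of Gm20319 at 104 FPKM, and the 2 leaders did not differ beyond the spread between libraries. 0610005C13Rik had 127.8 ± 11.1 FPKM in SG and 122.9 ± 9.22 FPKM in FG (SD, n = 4 each), and its log2 fold change of 0.06 had an adjusted p of 0.703 by limma. Gm10768 stood at 77.7 ± 14.5 FPKM in SG and 78.6 ± 10.3 FPKM in FG, and AW112010 at 52.2 ± 10.4 FPKM in SG and 51.5 ± 10.7 FPKM in FG (SD, n = 4 each). BC024386 was the variable one of these, with 98.1, 182, 200 and 161 FPKM in SG and 86.6, 135, 44.9 and 98.0 FPKM in FG. The groups of BC024386 overlapped and the gene did not pass the test (log2 fold change 0.86, SE 0.33, adjusted p = 0.0919). The 2 that passed, Urml and 1810008I18Rik, moved in opposite directions.

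**Figure D1:**
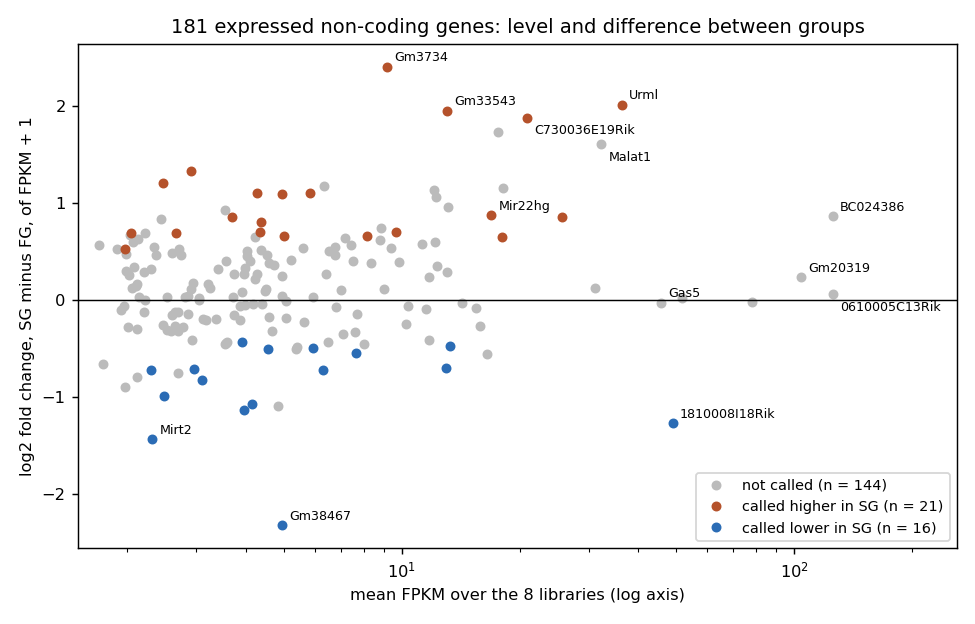
Each point is 1 of the 181 non-coding genes, with its mean FPKM over the 8 libraries on a log axis and its log2 fold change of FPKM + 1, SG minus FG, on the vertical axis. Colour marks the 21 genes called higher and the 16 called lower in SG. The genes above 100 FPKM lie near the zero line or, for BC024386, above it without a call, and Urml and 1810008I18Rik are the abundant genes with calls.

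Between SG and FG, 37 of the 181 non-coding genes changed, 21 higher and 16 lower in SG. Calls needed an adjusted p below 0.05 in a limma fit of log2(FPKM + 1) on all 9867 genes with at least 1 FPKM in at least 4 libraries, adjusted by Benjamini-Hochberg over all of them. The fit called 19.4% of all tested genes, and the share among the non-coding genes, 20.4%, lay near that background. The directions were divided differently: 11.6% of the non-coding genes were higher and 8.84% lower, beside 3.73% higher and 15.6% lower among all tested genes. The median log2 fold change was 0.12 over the non-coding genes and -0.14 over all tested genes. After median-ratio scaling, which moved the median of all tested genes to 0.01, 29 non-coding genes were higher and 7 lower in SG, 16% and 3.87%, beside 5.52% and 5.06% of all tested genes. Of the 37 calls, 27 remained under that scaling, 20 of the 21 rises and 7 of the 16 falls.

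**Figure D2:**
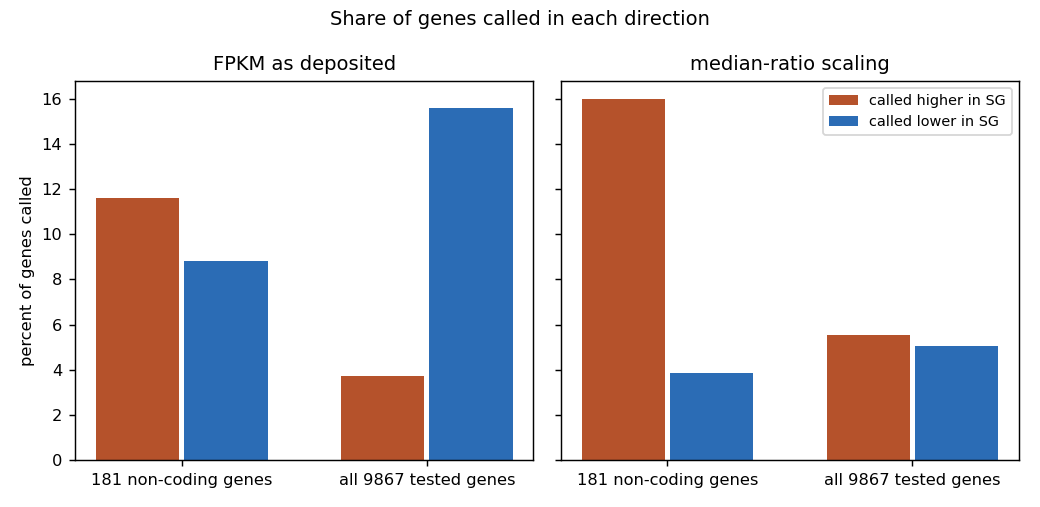
Bars give the percent of genes called higher and lower in SG than in FG, for the 181 non-coding genes and for all 9867 tested genes, with FPKM as deposited on the left and after median-ratio scaling on the right. The share called higher is 11.6% against 3.73% on the left and 16% against 5.52% on the right, and the share called lower among all tested genes is 15.6% on the left and 5.06% on the right.

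The groups did not overlap for 34 of the 181 genes, 18.8%, beside 26.1% of all tested genes. The 8 genes that reached 2 FPKM in 1 group only were all called: Gm38467, Mirt2, 2310040G24Rik and Gm36180 in FG, and Gm30931, Gm34667, Gm38847 and 2310015A16Rik in SG. Among the 95 genes that had 2 FPKM or more in all 8 libraries, which passed the threshold in both groups, 10 were called higher and 8 lower, 18.9% in all beside 19.4% of all tested genes, with 10.5% higher and 8.42% lower beside 3.73% and 15.6%. Fits that left out 1 library in turn kept 17 of the 37 calls in every case, 11 rises and 6 falls, and 6 of the 17 were genes that reached 2 FPKM in 1 group only. The count of calls ran from 20 without FG 93 to 46 without SG 101. It was 24 without SG 104, 25 without SG 103, 25 without SG 105 and 26 without FG 95. With 70 ways to divide the libraries 4 and 4, an exact permutation test (two-sided) cannot give a p below 0.0286, and all genes with non-overlapping groups had that value.

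The largest rise among called genes belonged to Gm3734, a predicted gene on chromosome 18. It had 8.31, 25.5, 19.4 and 11.1 FPKM in SG, against 1.27, 3.29, 0.680 and 3.76 FPKM in FG. Every SG library was above every FG library, and the spread within SG was wide. On the log2 scale SG was higher by 2.40 (SE 0.41, adjusted p = 0.0073 by limma), and the call was kept without any 1 library.

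Urml (chr13:68228435-68234731, minus strand), whose nearest protein-coding gene lies 326049 bases away, showed the rise with the smallest adjusted p. Its levels were 43.8, 75.2, 60.9 and 56.3 FPKM in SG and 11.7, 17.4, 11.6 and 14.5 FPKM in FG. The lowest SG library was well above the highest FG library, and each value rested on at least 709 fragments. The log2 fold change was 2.01 (SE 0.18, adjusted p = 0.000469 by limma) and 2.18 after median-ratio scaling.

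Gm33543 (chr10:95823973-95842910, minus strand) had 14.8, 13.8, 15.9 and 42.3 FPKM in SG and 2.41, 3.98, 6.10 and 5.38 FPKM in FG. SG 105 was far above the other SG libraries, yet the lowest SG library also exceeded every FG library. Limma gave a difference of 1.95 ± 0.36 (log2, SE; adjusted p = 0.0092), and the highest adjusted p with 1 library left out was 0.0296.

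C730036E19Rik (chr1:151138034-151144095, plus strand) had 16.9, 41.6, 45.2 and 26.2 FPKM in SG and 8.12, 16.3, 1.75 and 11.1 FPKM in FG. The lowest SG library, SG 101, lay just above the highest FG library, FG 94, and FG 95 was lowest by far. The log2 fold change was 1.88 (SE 0.53, adjusted p = 0.0382) and the call was lost when FG 93, FG 96, SG 103, SG 104 or SG 105 was left out (adjusted p up to 0.096).

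Of the next rises, 2310015A16Rik and Gm38847 reached 2 FPKM in SG alone. 2310015A16Rik had 5.03, 5.24, 3.10 and 4.96 FPKM in SG and 1.41, 0.696, 1.48 and 1.27 FPKM in FG (log2 fold change 1.33). Gm38847 had 3.84, 4.83, 3.09 and 3.52 FPKM in SG and 0.881, 1.17, 1.61 and 0.722 FPKM in FG (log2 fold change 1.21). Both were at low levels in each group and, by the selection, had to differ. The other rises among the 15 named by size were Gm27252, Gm30784, Mir22hg, Gm40438, 4833411C07Rik, Hnf4aos, Gm3787, Gm34667 and Snhg6, with log2 fold changes of 0.66 to 1.10. Of these, Gm27252, Gm30784, Gm40438, Gm3787 and Gm34667 kept their calls without any 1 library. Gm34667 reached 2 FPKM in SG alone, so it had to differ.

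**Figure D3:**
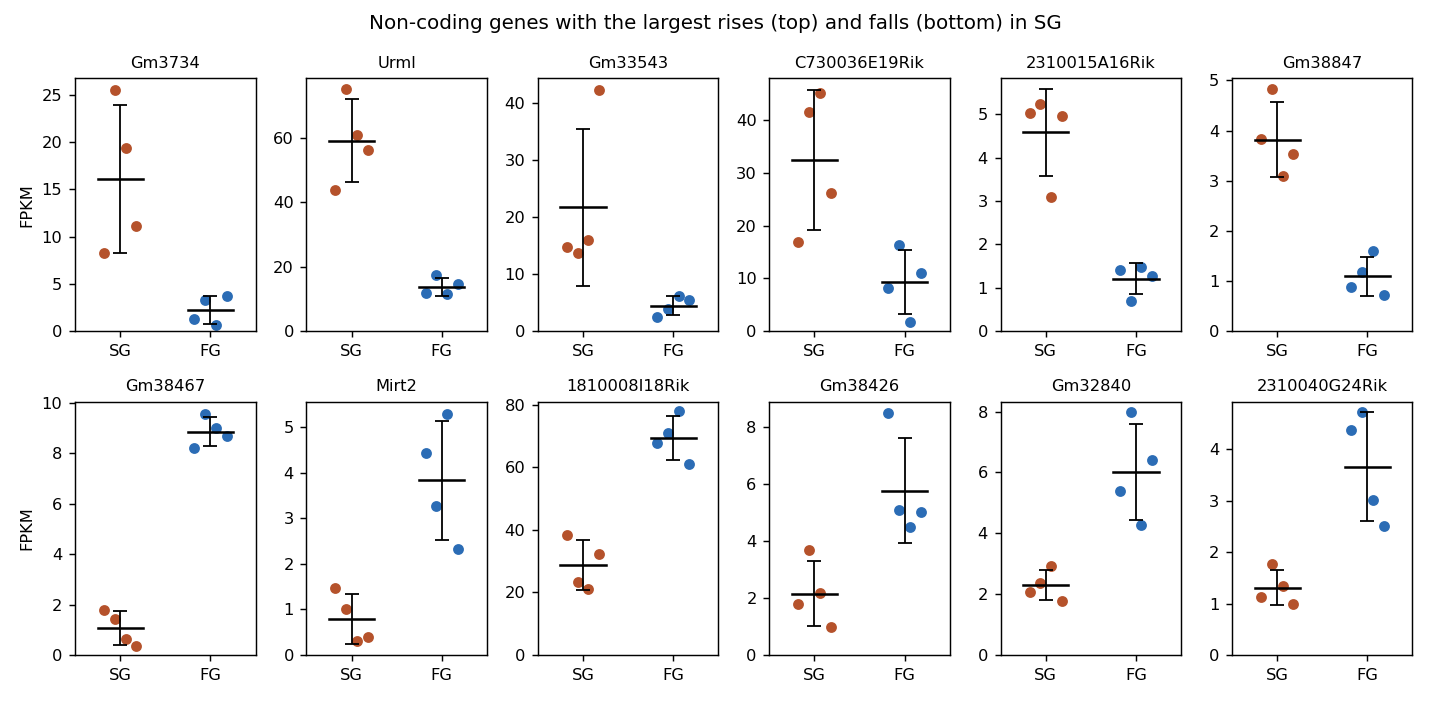
Points are the FPKM of single libraries, with 4 SG libraries on the left and 4 FG libraries on the right of each panel; the horizontal line is the group mean and the bar its SD. The upper row shows the 6 non-coding genes with the largest rises and the lower row the 6 with the largest falls among called genes whose groups did not overlap, so that the groups are apart in every panel by that choice. The SG 105 value of Gm33543, 42.3 FPKM, stands above the other 3 SG values.

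The largest fall among called genes belonged to Gm38467 (chr12:70229352-70231510, minus strand), beside the glycogen phosphorylase gene Pygl. It had 1.79, 1.43, 0.623 and 0.356 FPKM in SG, against 8.21, 9.57, 8.99 and 8.68 FPKM in FG. The FG libraries were close together, no SG library came near them, and the SG values rested on as few as 10 fragments. Only FG libraries reached the 2 FPKM of the selection, so this gene had to differ, and its log2 fold change of -2.33 (SE 0.21), -2.20 after median-ratio scaling, is a description.

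1810008I18Rik (chr7:65803037-65806233, plus strand) fell at a much higher level. It had 38.4, 23.4, 21.0 and 32.2 FPKM in SG, against 67.8, 70.8, 77.9 and 61.1 FPKM in FG. The groups were well apart. The SD was 8.02 FPKM in SG and 6.97 FPKM in FG, which was 27.9% of the mean in SG and 10.05% in FG. The log2 fold change was -1.28 (SE 0.18, adjusted p = 0.00354). Gm20684, 53034 bases farther along chromosome 7 and on the minus strand, also fell, with 4.63 ± 1.52 FPKM in SG and 7.99 ± 0.564 FPKM in FG (SD, n = 4 each; log2 fold change -0.72, adjusted p = 0.0352). Pcsk6, a proprotein convertase gene 94 bases from Gm20684, fell as well, with 26.6 ± 5.12 FPKM in SG and 44.7 ± 7.48 FPKM in FG (SD, n = 4 each; log2 fold change -0.73, adjusted p = 0.0186, and 0.0545 when FG 93 was left out). The call of Gm20684 was lost when FG 93, FG 94, FG 95, FG 96 or SG 104 was left out (adjusted p up to 0.0898) and after median-ratio scaling (adjusted p = 0.0871).

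Mirt2, named after its rise in infarcted mouse heart, had 1.47, 1.01, 0.301 and 0.399 FPKM in SG and 4.44, 3.27, 5.30 and 2.32 FPKM in FG. Only FG libraries reached the 2 FPKM of the selection, so this gene too had to differ, and the difference was -1.44 ± 0.25 (log2, SE). Mirt2 overlaps the coding gene Spatc1 on the opposite strand. The remaining named falls were Gm38426, Gm32840, 2310040G24Rik, Gm16124, Gm36180, 4931408D14Rik, Zfas1, 4930481A15Rik, Gm10658, Gm8883 and Brip1os, with log2 fold changes of -1.14 to -0.44. Gm32840, 2310040G24Rik and Gm16124 kept their calls without any 1 library, and Gm38426 lost its call when FG 93 was left out (adjusted p = 0.0545). 2310040G24Rik and Gm36180 reached 2 FPKM in FG alone, so they had to differ. Gm36180 was not called without FG 93 or SG 103 (adjusted p up to 0.0691), nor Gm8883 without SG 104 or SG 105 (up to 0.0535), nor Gm10658 without FG 93, FG 94, FG 96 or SG 103 (up to 0.0674). 4931408D14Rik and Brip1os were called in 1 of the 8 fits that left out a library, the one without SG 101, and 4930481A15Rik in 2, those without FG 94 and without SG 101 (adjusted p in the other fits up to 0.103 for 4931408D14Rik, 0.083 for Brip1os and 0.0752 for 4930481A15Rik). Gm36180 and the 6 named falls from 4931408D14Rik to Brip1os lost their calls after median-ratio scaling (adjusted p from 0.0564 for Gm36180 to 0.129 for Brip1os).

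Long non-coding RNAs known in many tissues were described by a list chosen with earlier results of these data known. Of this list 8 were among the 181 genes, and none passed the test. The background for such a count is the 19.4% called among all tested genes. Malat1, a long RNA of nuclear speckles, came closest, with 19.6, 60.1, 63.1 and 49.1 FPKM in SG and 18.3, 28.1, 4.11 and 15.6 FPKM in FG. SG 101 lay within the FG range, and FG 95 was the lowest of all. The log2 fold change was 1.60 (SE 0.53, adjusted p = 0.0641; exact permutation p = 0.0571, two-sided). Without FG 95 alone it was 1.09 with an adjusted p of 0.096. Without FG 95 and SG 101 together it was 1.47 with an adjusted p of 0.00814. That joint exclusion was chosen after the low values of these 2 libraries were seen, so its p is a description.

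Neat1, the scaffold of paraspeckles, had 3.29 ± 0.9996 FPKM in SG and 2.18 ± 0.960 FPKM in FG (SD, n = 4 each; log2 fold change 0.46, adjusted p = 0.228). Firre, an X-linked RNA that organises chromatin contacts, had 6.80 ± 1.71 FPKM in SG and 4.39 ± 1.34 FPKM in FG (SD, n = 4 each; log2 fold change 0.54, adjusted p = 0.11). Norad, which binds Pumilio proteins in human cells, had the smallest difference of the list, with 14.1 ± 1.91 FPKM in SG and 14.5 ± 1.62 FPKM in FG (SD, n = 4 each). Tug1, Dleu2, Oip5os1 (Cyrano, which directs the decay of miR-7) and the imprinted Peg13 had log2 fold changes of -0.30 to 0.38, and their groups overlapped.

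FG 95 stood low in many of these RNAs, and SG 101 in fewer. Within its own group, FG 95 had the lowest value for 106 of the 181 genes, 58.6%, beside 32.6% of all tested genes, and SG 101 for 81, 44.8%, beside 35.1%. Over all 8 libraries, FG 95 held the lowest of the 8 values for 69 of the 181 non-coding genes, 38.1%, and for 14.2% of all tested genes, while SG 101 held it for 25 of the non-coding genes, 13.8%, fewer than the 29 of SG 105, and for 20.8% of all tested genes. The 181 genes took 0.155% of the fragments of FG 95 and 0.210% to 0.261% in the other FG libraries. They took 0.212% in SG 101 and 0.274% to 0.325% in the other SG libraries, and group means were 0.283% ± 0.0524 in SG and 0.211% ± 0.0431 in FG (SD, n = 4 each). Ddx3y, a Y-linked helicase gene that served as a library check, was also lowest in FG 95 at 0.904 FPKM and lowest in SG 101 among SG libraries at 4.00 FPKM. Without FG 95 alone, 26 of the 181 genes were called, 14 higher and 12 lower. Of the 9867 tested genes 245 were then higher and 857 lower. The median log2 fold change of the 181 genes was 0.05 without FG 95, 0.19 without SG 101 and 0.12 with all 8 libraries. Of the 37 calls, 30 remained without FG 95 and SG 101 together, an exclusion chosen after the data were seen. The part of these 2 libraries in the results was not tested.

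**Figure D4:**
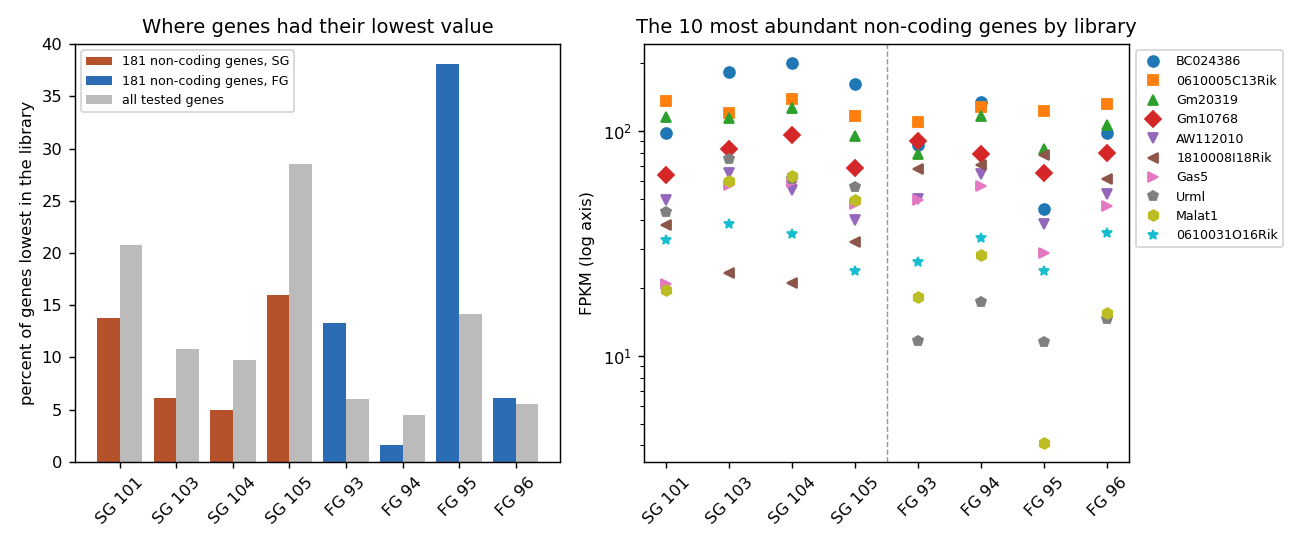
Left, the percent of the 181 non-coding genes and of all tested genes whose lowest value fell in each library, SG libraries left of FG libraries; right, the FPKM of the 10 most abundant non-coding genes by library on a log axis. FG 95 holds the lowest value for 38.1% of the non-coding genes, and of the 10 most abundant genes 7 are lowest of the FG libraries in FG 95 and 5 lowest of the SG libraries in SG 101.

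Hosts of small nucleolar RNAs, which guide the modification of ribosomal RNA, gave 1 rise and 1 fall among 12 genes, beside 3.73% and 15.6% of all tested genes. Snhg6 had 8.02, 7.93, 12.7 and 12.5 FPKM in SG and 6.23, 6.36, 4.27 and 7.46 FPKM in FG. Its SG libraries all lay above the FG libraries, 2 of them narrowly (log2 fold change 0.66, adjusted p = 0.0433). The call was lost when FG 93, FG 94, FG 95, SG 104 or SG 105 was left out (adjusted p up to 0.109). Zfas1 moved the other way, with 4.70, 6.60, 6.28 and 6.51 FPKM in SG and 9.46, 7.68, 8.49 and 11.6 FPKM in FG (log2 fold change -0.55, adjusted p = 0.0289). Its call was lost when FG 93, FG 96, SG 104 or SG 105 was left out (adjusted p up to 0.0762) and after median-ratio scaling (adjusted p = 0.117). Zfas1 overlaps the start of Znfx1 on the opposite strand, which also fell (4.89 ± 1.06 FPKM in SG and 7.91 ± 0.156 FPKM in FG, SD, n = 4 each, adjusted p = 0.0151).

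Gas5, the most abundant host and a growth-arrest transcript, had 20.9, 57.6, 59.5 and 47.6 FPKM in SG and 49.2, 57.02, 28.7 and 46.4 FPKM in FG. SG 101 and FG 95 were its lowest libraries, and the other 6 lay close together across the groups. Its log2 fold change was -0.03 (adjusted p = 0.959). Snhg17 had 3.21 ± 0.776 FPKM in SG and 1.98 ± 0.404 FPKM in FG (SD, n = 4 each; log2 fold change 0.49, adjusted p = 0.0603), and Snhg1 had 11.3 ± 4.57 FPKM in SG and 6.40 ± 2.60 FPKM in FG (SD, n = 4 each; adjusted p = 0.151). Snhg3, Snhg5, Snhg8, Snhg12, Snhg20, Epb41l4aos and 2410006H16Rik had log2 fold changes of -0.09 to 0.41 without a call.

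Among the genes whose span holds an annotated microRNA on the same strand, Mir22hg rose. It had 18.5, 21.9, 25.7 and 21.2 FPKM in SG and 14.6, 16.6, 6.87 and 9.89 FPKM in FG. All SG libraries were above all FG libraries, with the nearest pair SG 101 and FG 94 (log2 fold change 0.88, SE 0.23, adjusted p = 0.0323). The call was lost when FG 96, SG 103, SG 104 or SG 105 was left out (adjusted p up to 0.0828). Tlcd2, the coding gene 1334 bases away on the same strand, rose too, with 46.5 ± 14.1 FPKM in SG and 23.2 ± 4.60 FPKM in FG (SD, n = 4 each; log2 fold change 0.95, adjusted p = 0.0189, and up to 0.0575 when FG 93 or SG 103 was left out). Dleu2 had 2.28 ± 0.600 FPKM in SG and 1.69 ± 0.587 FPKM in FG (SD, n = 4 each; adjusted p = 0.313). The mature microRNAs were not measured here, and their sequences from RefSeq, build GRCm38.p6, are shown because they tell which target seeds the hosts carry. Capitals mark the seed, bases 2 to 8, which miR-15a-5p and miR-16-5p share.
miR-22-3p in Mir22hg: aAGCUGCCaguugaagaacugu
miR-22-5p in Mir22hg: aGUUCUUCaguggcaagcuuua
miR-15a-5p in Dleu2: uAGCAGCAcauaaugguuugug
miR-16-5p in Dleu2: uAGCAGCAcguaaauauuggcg
miR-101a-3p in E130102H24Rik: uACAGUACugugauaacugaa

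A list of non-coding genes reported from mouse liver, chosen with earlier results of these data known, had 14 members here, of which 4 were higher and 1 lower in SG, beside 3.73% and 15.6% of all tested genes. The rises were C730036E19Rik, Mir22hg, 4833411C07Rik and Hnf4aos, and the fall was 1810008I18Rik. 4833411C07Rik (chr8:10899922-10902334, plus strand) had 11.8, 12.8, 13.1 and 10.6 FPKM in SG and 9.63, 7.34, 5.09 and 6.76 FPKM in FG. The groups were apart, with SG 105 and FG 93 nearest to each other (log2 fold change 0.70, adjusted p = 0.0191, lost when SG 103 or SG 104 was left out, adjusted p up to 0.0527). Its nearest coding gene, the insulin receptor substrate gene Irs2, lies 82347 bases away and was at 5.38 ± 1.74 FPKM in SG and 3.35 ± 1.92 FPKM in FG without a call (SD, n = 4 each; adjusted p = 0.199).

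Hnf4aos is transcribed antisense to Hnf4a, the gene of a nuclear receptor that keeps hepatocytes differentiated. It had 7.23, 4.999, 6.28 and 4.04 FPKM in SG and 2.64, 3.62, 2.40 and 3.60 FPKM in FG, with all SG libraries above all FG libraries. Its log2 fold change was 0.70 (SE 0.17, adjusted p = 0.025), lost when FG 93, FG 95 or SG 104 was left out (adjusted p up to 0.0731). Hnf4a itself had 104, 132, 128 and 153 FPKM in SG and 131, 105, 134 and 132 FPKM in FG, which differed by 0.04 on the log2 scale (adjusted p = 0.872). Hnf1aos1, antisense to another hepatocyte factor gene, was at 4.74 ± 1.499 FPKM in SG and 4.28 ± 1.27 FPKM in FG without a call (SD, n = 4 each; adjusted p = 0.735).

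For 14 of the 181 genes, the span overlapped or lay within 10 kb of a gene on lists of hepatic metabolism, in 15 pairs with 14 metabolic genes. Of these 14 non-coding genes 3 were called, Gm38467, Gm32840 and Gm41269, 21.4% beside 19.4% of all tested genes, and Gm38467 had to differ by its selection. In each case the metabolic neighbour was called as well, in the same direction for 2 of the 3. Gm38467 ends 1669 bases upstream of Pygl on the same strand. Pygl, the liver phosphorylase that releases glucose units from glycogen, had 185, 156, 124 and 113 FPKM in SG and 355, 331, 360 and 348 FPKM in FG. In both genes SG 105 was lowest, SG 101 was the highest SG library, and no SG library reached the FG range. For Pygl the log2 fold change was -1.29 (SE 0.15, adjusted p = 0.00161), beside -2.33 for Gm38467.

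Gm41269 and Agxt2 face away from each other, with 693 bases between their annotated spans. Agxt2, a mitochondrial aminotransferase that degrades dimethylarginine and beta-aminoisobutyrate, had 43.0, 44.7, 45.8 and 51.5 FPKM in SG and 33.1, 38.1, 33.9 and 34.2 FPKM in FG (log2 fold change 0.40, SE 0.09, adjusted p = 0.0166, and 0.0524 when FG 93 was left out). Gm41269 had 4.8, 5.51, 3.57 and 6.17 FPKM in SG and 1.33, 3.61, 2.30 and 2.32 FPKM in FG. SG 104 lay just below FG 94, so the groups of Gm41269 overlapped, and SG 105 was highest in both genes (log2 fold change 0.85, adjusted p = 0.0254). The call of Gm41269 was lost when FG 93, FG 95, FG 96, SG 103 or SG 105 was left out (adjusted p up to 0.0685). Gm41269 lies 536 bases from the prolactin receptor gene Prlr, its nearest coding neighbour.

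Gm32840 and Slc38a4, a transporter of neutral and cationic amino acids, overlap on opposite strands and moved in opposite directions. Gm32840 had 2.08, 2.38, 2.93 and 1.78 FPKM in SG and 5.38, 8.0, 4.27 and 6.42 FPKM in FG (log2 fold change -1.08, SE 0.17, adjusted p = 0.00615). Slc38a4 had 327, 313, 397 and 451 FPKM in SG and 202, 292, 225 and 264 FPKM in FG (log2 fold change 0.59, SE 0.15, adjusted p = 0.0275). The groups were apart in both genes, and the call of Gm32840 was kept without any 1 library. Slc38a4 passed no longer when FG 93, FG 95, SG 104 or SG 105 was left out (adjusted p up to 0.0783).

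Near Pck1, the cytosolic enzyme that commits oxaloacetate to gluconeogenesis, lie Gm36691 and Gm36749, which overlap each other on opposite strands, 4941 and 6406 bases away. Pck1 had 1165, 1225, 1669 and 1749 FPKM in SG and 616, 874, 678 and 1092 FPKM in FG (log2 fold change 0.85, adjusted p = 0.023), and lost its call when FG 93, FG 95, SG 104 or SG 105 was left out (adjusted p up to 0.0658). Gm36749 had 2.04, 4.27, 5.93 and 7.84 FPKM in SG and 1.21, 3.02, 1.05 and 3.08 FPKM in FG. SG 101 lay within the FG range, and SG 105 was highest in both genes (log2 fold change of Gm36749 0.93, SE 0.35, adjusted p = 0.0903). Gm36691 differed by 0.38 ± 0.43 (log2, SE; adjusted p = 0.567).

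The other metabolic pairs had no call on either side. They were Gm35993 with Acmsd of the kynurenine pathway, Gm10768 with the bile conjugate pump Abcc2, Gm12909 with the major urinary protein gene Mup3, 0610005C13Rik with the branched-chain aminotransferase gene Bcat2, and 0610031O16Rik with the alcohol dehydrogenase gene Adh7. Further pairs were Gm15343 with Ftcd of histidine breakdown and with the sterol enzyme gene Lss, 1300002E11Rik with Ehhadh of peroxisomal oxidation, Gm41637 with Haao of tryptophan breakdown, and Gm52871 with the lipid droplet gene Cidec. Acmsd had the largest difference among them, 20.1 ± 15.9 FPKM in SG and 5.85 ± 2.24 FPKM in FG (SD, n = 4 each; log2 fold change 1.39, adjusted p = 0.0639), while Gm35993 on its opposite strand was at 3.88 ± 0.713 FPKM in SG and 2.95 ± 0.780 FPKM in FG (adjusted p = 0.184). Just beyond the 10 kb limit, Gm30784 (chr6:141866356-141875620) lay 10072 bases from the organic anion transporter gene Slco1a4. Gm30784 had 5.14, 7.25, 6.73 and 9.08 FPKM in SG and 1.60, 3.88, 2.14 and 3.76 FPKM in FG (log2 fold change 1.09, adjusted p = 0.0148). Slco1a4 had 21.8, 22.3, 40.6 and 49.6 FPKM in SG and 6.43, 10.8, 10.5 and 10.9 FPKM in FG (log2 fold change 1.63, adjusted p = 0.00743), and the groups were apart in both. Slco1a1, 31661 bases from Gm30784, was not called (adjusted p = 0.34). Within 50 kb there were 24 metabolic pairs, 4 of them with both genes called, 3 in the same direction. Fgf21 was called lower (log2 fold change -1.465, adjusted p = 0.0168) 38714 bases from the uncalled 0610005C13Rik. Tff3 was called higher (1.569, adjusted p = 0.0302) 23141 bases from the uncalled Gm15318.

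**Figure D5:**
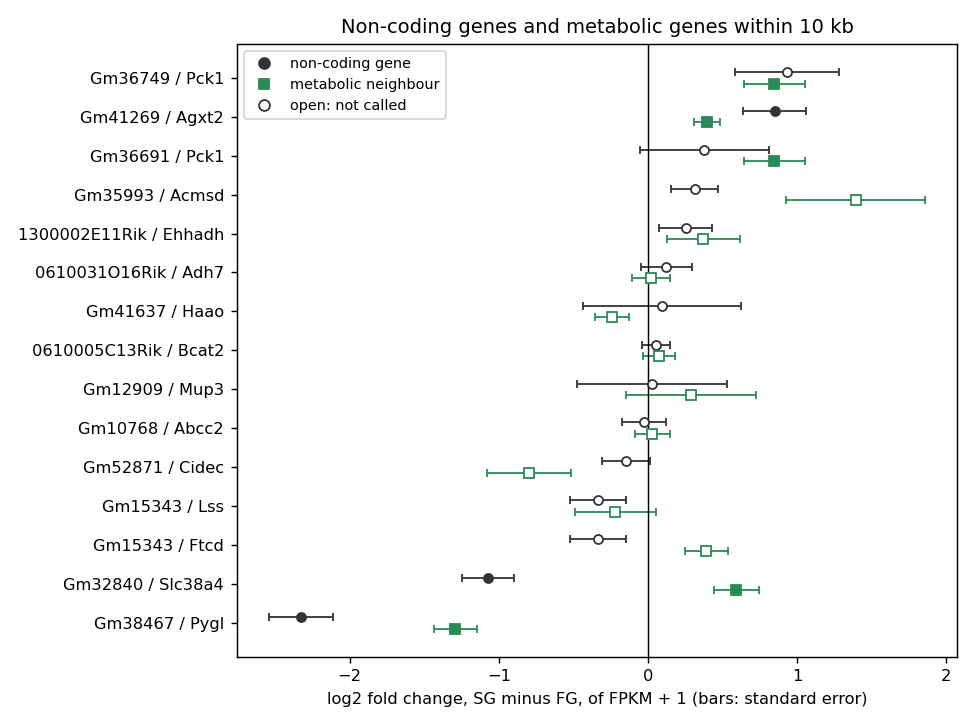
Each row is a non-coding gene (circle) with a metabolic gene within 10 kb (square), placed at their log2 fold changes of FPKM + 1, SG minus FG, with bars of 1 standard error; filled symbols passed the test. Gm38467 and Pygl are both lower in SG, Gm41269 and Agxt2 both higher, Gm32840 and Slc38a4 lie on opposite sides of zero, and Pck1 is called beside 2 uncalled neighbours.

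Over all distances, the nearest protein-coding gene of a called non-coding gene was itself tested in 26 cases and called in 13, 50%. The direction was the same in 11 of the 13, 8 of them falls, and Pcsk6 counts in 2 of the 13 pairs. Among all tested genes, 1544 of the 1912 calls were falls. In the pairs of Gm38467, 2310040G24Rik and Gm38847 the non-coding gene reached 2 FPKM in 1 group only and had to differ. For non-coding genes without a call, the nearest coding gene was called in 17 of 108 cases, 15.7%, beside 19.4% of all tested genes. After median-ratio scaling the nearest coding gene was called for 8 of 26 called non-coding genes, 30.8%, and for 12 of 108 without a call, 11.1%, beside 10.6% of all tested genes. Of the 13 pairs 6 kept both calls under that scaling, and of the 8 shared falls 2 did, Gm38467 with Pygl and 1810008I18Rik with Pcsk6. These shares are descriptions without a test. Pairs with a shared fall beyond those named above were 2310040G24Rik with C87436, Gm44096 with the complement gene C1rl, 4931408D14Rik with the insulin-degrading enzyme gene Ide, and 4930481A15Rik with Drap1, and a shared rise was seen for Gm38847 with Nat8f2. After median-ratio scaling none of these 4 coding neighbours with a fall was called (adjusted p = 0.177 for C87436, 0.0744 for C1rl, 0.0965 for Ide and 0.362 for Drap1), nor was Gm44096 (0.107). C87436 and Drap1 passed in 1 of the 8 fits that left out a library, the one without SG 101 (adjusted p up to 0.112 and 0.12 in the others), and Gm44096 in 1, the one without SG 104 (up to 0.0931). Ide was not called without FG 93 or SG 104 (up to 0.0583), nor Nat8f2 without FG 93, FG 95, FG 96, SG 103 or SG 104 (up to 0.0829). 1600020E01Rik, 1141 bases from the poly(C)-binding protein gene Pcbp1, was called higher while Pcbp1 was called lower (log2 fold changes 0.66 and -0.51). The call of 1600020E01Rik was absent when FG 93, FG 95, FG 96, SG 103, SG 104 or SG 105 was left out (adjusted p up to 0.117), and that of Pcbp1 after median-ratio scaling (adjusted p = 0.0503). Of the 37 called genes 14 overlapped a coding gene, where reads cannot be assigned without strand.

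In bulk liver, fewer cells of a type and less RNA per cell cannot be told apart. Among 8 marker lists, hepatocyte markers summed to 53440 to 71940 FPKM in SG and 49490 to 59820 FPKM in FG, with 3 of 8 higher and none lower. The higher genes were Apoa1, Cps1 and Ass1, and Alb, the most abundant of the list, had a log2 fold change of 0.007 without a call. Endothelial markers summed to 74.8 to 89.0 FPKM in SG and 95.8 to 118 FPKM in FG, with 1 of 8 tested lower. The lower gene was Clec4g, the most abundant of the list, with 27.9 to 40.3 FPKM in SG and 47.8 to 57.2 FPKM in FG. The other endothelial markers had log2 fold changes from -0.32 (Pecam1) to 0.24 (Lyve1) without a call. Cholangiocyte markers summed to 13.04 to 19.1 FPKM in SG and 21.9 to 27.7 FPKM in FG, with 1 of 2 tested lower, and neutrophil markers to 0.698 to 1.42 FPKM in SG and 2.15 to 3.61 FPKM in FG. Hepatocyte, macrophage, stellate, lymphocyte and erythroid sums overlapped between the groups, and no marker in the table was at 0 in all libraries. Among the erythroid markers Alas2 was called higher (log2 fold change 0.68, adjusted p = 0.0146). The part of other cell types in the differences of the non-coding genes was not tested.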

How the data were processed

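Liver RNA of 8 mice was sequenced as 150 bp pairs after mRNA enrichment, per the labels' protocols. The deposited values are FPKM per gene, made by the authors; fastp, HISAT2, HTSeq and DESeq2 and the builds GRCm38 and mm10 are named per the submitters' processing notes, without versions or roles. No source used here says whether counting used strand. Each of the 8 expression columns carries a sample's label, and 0 columns of values had none. A further non-coding gene is not reported here.

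FPKM are not counts, so log2(FPKM + 1) was fitted with limma 3.58.1 in R 4.3.3 (empirical Bayes with a mean-variance trend, two-sided, no covariates) over the 9867 genes with at least 1 FPKM in at least 4 of 8 libraries, with Benjamini-Hochberg adjustment over all of them. Fold changes are SG minus FG on this scale, where changes at low levels appear smaller than they are. Any adjusted p in the text comes from limma, and an exact permutation test over 70 assignments stands beside it. The fit was tested on simulated data.

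Because FPKM values move in steps of 1 fragment, whole fragments could be worked out for 100% of genes, within 0.02 fragments. Totals were 36545128 to 39214619 fragments in SG libraries and 38253764 to 41977438 in FG libraries, and the fragments served shares, the depth behind values and 1 alternative fit (limma voom).

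Positions, promoter windows and microRNAs are those of RefSeq, build GRCm38.p6. A neighbour overlapped a gene's span or lay within 10 kb. The members, gene lists and neighbours were chosen with earlier results of these data known. Genes named in the text were the 15 largest rises and falls among called members with non-overlapping groups, the 10 with the highest mean, members on the non-coding lists, members next to a metabolic gene with that gene, and the 3 on each side of the threshold. Genes outside this rule that are named as neighbours or in called pairs were chosen after their values were seen. Alternatives covered the pseudocount, filters, scaling, variance model, library weights, thresholds, the selection level and leaving out each library.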

Additional observations from a re-analysis of the deposited data

Results flagged for a closer look

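Of 174 groups of 4 libraries looked at among the named genes, 11 held a library far from the other 3, where chance flags about 1 in 20. In SG 101, 5 genes stood low: Tug1 at 2.99 FPKM (others 6.05 to 6.63), 9030616G12Rik at 4.61 FPKM (others 13.1 to 14.8), Zfas1 at 4.70 FPKM (others 6.28 to 6.60), Epb41l4aos at 6.18 FPKM (others 7.27 to 7.45) and Gm52871 at 1.97 FPKM (others 2.81 to 2.93). In the other SG libraries, Gm33543 was high in SG 105 at 42.3 FPKM (others 13.8 to 15.9), 2310015A16Rik low in SG 104 at 3.10 FPKM (others 4.96 to 5.24) and Snhg20 low in SG 103 at 4.11 FPKM (others 6.59 to 6.71). In FG, Gm38426 was high in FG 93 at 8.51 FPKM (others 4.48 to 5.09), Gm16124 high in FG 96 at 5.17 FPKM (others 3.84 to 3.99) and Gm10658 low in FG 95 at 5.74 FPKM (others 7.38 to 7.71). Without SG 101, the count of called non-coding genes was 46 in place of 37.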

How the results depend on the processing

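No paired analysis was possible because the 2 groups share no replicate numbers. Of the 32 called genes among those named, none changed direction under any of the 18 alternatives. All of them except Gm41269 had groups that did not overlap, most of them by the rule for naming. For these genes, fits that left out libraries could not reverse the direction, so those fits do not test it. Calls of the 32 genes were kept in 454 of 557 refits and lost in 103. Of the 181 non-coding genes, 37 were called, 21 higher and 16 lower in SG. That count was 18 (11 and 7) with no filter on low values and 11 (6 and 5) at an adjusted p below 0.01. With library weights it was 56 (37 higher). With median-ratio or trimmed-mean scaling 7 were lower. A mean of at least 5 FPKM left 72 of the 181 genes tested, 18 of them called (12 and 6). Over all genes, 1378 of 5563 were then called. Selection at 1 FPKM gave 55 called of 302 non-coding genes, 33 of them higher. At 5 FPKM it gave 19 of 76 (12 and 7), and at 2 FPKM in all 8 libraries 18 of 95 (10 and 8). Leaving out 1 library gave 20 to 46 called, 12 to 29 higher and 7 to 17 lower. Over all tested genes (1912 called, 368 higher and 1544 lower) the counts were 1133 (219 and 914) with no filter, 1044 (499 lower) with median-ratio scaling, 1056 (507 lower) with trimmed-mean scaling, 415 (99 and 316) at 0.01, 572 higher with library weights, and 834 to 2363 (181 to 467 and 653 to 1896) with 1 library left out, lowest without FG 93 and highest without SG 101. With overlapping spans only, 5 non-coding genes had a metabolic neighbour in place of 14. The causes of these shifts were not tested.

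Genes that changed sign had no call. With median-ratio and trimmed-mean scaling the values were 0.148 and 0.147 for Gm10768, 0.142 and 0.141 for Gas5, 0.126 and 0.125 for Norad, 0.091 and 0.090 for Snhg3, 0.070 and 0.070 for Snhg8, and 0.083 and 0.082 for 2410006H16Rik. With library weights they were 0.092 for Gm10768, 0.170 for Gas5, 0.036 for Norad, 0.037 for Snhg3 and 0.042 for 2410006H16Rik. Without FG 95 and SG 101, an alternative chosen after seeing the data, they were -0.082 for AW112010, 0.107 for Gas5, 0.169 for Snhg3, 0.112 for 2410006H16Rik, -0.042 for Gm12909, -0.065 for Gm41637 and -0.054 for Mup3. With 1 library left out they ran from -0.130 to 0.064 (Gm10768), -0.104 to 0.139 (AW112010), -0.229 to 0.307 (Gas5), -0.108 to 0.050 (Norad), -0.288 to 0.124 (Snhg3), -0.207 to 0.042 (Snhg8), -0.189 to 0.10 (2410006H16Rik), -0.031 to 0.242 (Hnf1aos1), -0.384 to 0.397 (Gm12909), -0.425 to 0.456 (Gm41637), -0.037 to 0.105 (Abcc2), -0.140 to 0.522 (Mup3), -0.003 to 0.142 (Bcat2) and -0.062 to 0.101 (Adh7).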

Other observations

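By the form of their names, the 181 genes included 84 predicted Gm genes (12 called higher and 9 lower in SG, median log2 fold change 0.23), 47 Rik clones (5 higher and 4 lower, median 0.03), 12 named for an opposite strand (1 higher and 1 lower, median 0.08), 7 LOC genes (0 called, median -0.28) and 18 with other names (1 higher and 1 lower, median 0.20), beside 3.73% higher and 15.6% lower of all tested genes. Among promoter windows, TGTTTAC was found in 2 of the 21 windows of genes called higher, in 4 of the 16 windows of genes called lower and in 3.65% of all mouse windows, a description over few windows. Gm16348 was listed at 0 in FG 95 and had 0.899 to 5.28 FPKM in SG and 1.34 to 3.44 FPKM in the other FG libraries.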
